A study of Homo sapiens with 6 samples.

Results

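Chaperone genes code for the proteins that help other proteins fold. The set described here was the protein-coding genes on chromosomes 1-22 and X whose symbols begin with HSPA, HSPB, HSPD, HSPE, HSPH, HSP90, DNAJA, DNAJB, DNAJC or CCT, followed by a number or by A or B, and TCP1. It held 84 of 19974 protein-coding genes. The symbol rule also took in HSPBAP1, which codes for a protein that binds a small heat shock protein and is not itself a chaperone, and the readthrough genes HSPE1-MOB4 and DNAJC25-GNG10, which share a start with HSPE1 and DNAJC25.

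The cells were U937, an established human line of monocytic character derived from a histiocytic lymphoma. In 3 independent clones, labelled ΔNSPs, the neutrophil serine protease genes CTSG, ELANE and PRTN3 had been depleted together by plasmid transduction, and 3 control lines had received control plasmids. Cells of both groups were grown under geneticin selection, treated with DNase, washed and frozen in a medium with DMSO before ATAC-seq, an assay in which a transposase cuts accessible DNA. Each ΔNSPs library came from 1 clone. The labels do not say whether a control line was a clone or a mixed population, and they give no batch, so the genotype and a batch running with it cannot be told apart.

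Folding is handled by chaperone machines that work in sequence. HSP70 proteins bind exposed stretches of new or damaged chains and are driven by J proteins (the DNAJ families), which deliver clients and stimulate ATP hydrolysis, and by nucleotide exchange factors such as HSP110. HSP90 completes the maturation of kinases and receptors. The ring-shaped chaperonins, TRiC in the cytosol and HSP60 with its HSP10 lid in mitochondria, enclose their clients, and small heat shock proteins hold unfolded chains without ATP. Many of these genes are expressed in every cell, while a subset is induced by heat shock factor 1 after stress.

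Each library was represented by the authors' own list of peaks on build GRCh38. A gene was counted in a library when a listed interval lay within 1000 bp of either end of the gene, called a gene-end peak here. On chromosomes 1-22, X and Y the lists held 14262, 24981 and 2188 peaks in ΔNSPs clones 1, 2 and 3, against 13, 4 and 2 in control lines 1, 2 and 3. The mean number of protein-coding genes with a gene-end peak was 5010 ± 3344 in the ΔNSPs clones and 0.333 ± 0.577 in the control lines (SD, n = 3 each; difference 3.49 on log10(genes + 1), exact two-sided permutation p = 0.1, the smallest that 3 against 3 allows). Since the control lists were nearly empty for every kind of gene, the absence of a chaperone gene from them is no property of the chaperone genes. The lowest −log10 p listed was 4.89, 4.86 and 5.75 in ΔNSPs clones 1, 2 and 3, against 7.45, 7.79 and 7.998 in control lines 1, 2 and 3, so the control lists took in a site only at a smaller p. Read totals are unknown, a list holds no value at a site without a peak, and the comparison is therefore of peaks listed, not of accessibility. As a check of the cell type, 3 of 17 monocytic marker genes (CD68, ITGAM and TYROBP) carried such a peak in 2 or more ΔNSPs clones and 6 (CD86, FCGR1A, ITGB2, LYZ, MPO and SPI1) had none in any clone; of 10 marker genes of other lineages only CD3E had one. In at least 2 clones the share of all protein-coding genes was 23.3%, so the monocytic markers did not stand out there. In ΔNSPs clones 1, 2 and 3 they had a peak at 6, 8 and 1 of 17 (35.3%, 47.1% and 5.88%). Among all genes the shares were 39.1%, 29.6% and 6.55%, so the markers lay above all genes in clone 2 alone.

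Chaperone genes carried gene-end peaks in the ΔNSPs clones more often than protein-coding genes as a whole. ΔNSPs clones 1, 2 and 3 had a gene-end peak at 52, 38 and 15 of the 84 genes, or 61.9%, 45.2% and 17.9%, and control lines 1, 2 and 3 had one at 0, 0 and 0. Among all protein-coding genes the shares were 39.1%, 29.6% and 6.55% in ΔNSPs clones 1, 2 and 3, and 0.00501%, 0.0% and 0.0% in control lines 1, 2 and 3. In at least 2 ΔNSPs clones and no control line, a peak was listed for 36 chaperone genes (42.9%), against 23.3% of all protein-coding genes. In all 3 ΔNSPs clones 15 did (17.9%), against 5.4% of all. Without clone 1 the count in at least 2 clones was 15 (17.9%), against 5.63% of all genes, and without clone 2 it was also 15, against 6.21%. These shares describe the set and were not tested, as genes are not replicates.

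The clones were nested. The 15 genes of ΔNSPs clone 3, which had the shortest list of the clones, were all found in clones 1 and 2 too, and among all protein-coding genes this held for 1079 of 1308 (82.5%). It follows that the 21 genes with a peak in exactly 2 clones had it in clones 1 and 2. Another 18 genes had a peak in 1 clone, 16 of them in clone 1 and the other 2, DNAJA4 and DNAJC2, in clone 2. The remaining 30 had none (35.7%, against 53.4% of all protein-coding genes). A peak in 1 clone was listed for 4647 of the 19974 protein-coding genes.

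The share of genes with a peak differed between the chaperone classes. All 3 genes of the mitochondrial chaperonin class had a gene-end peak in all 3 ΔNSPs clones. The 3 HSP90 genes and the HSP110 gene HSPH1 had one in clones 1 and 2 and none in clone 3. Of the TRiC class 6 of 10 genes (60%) had a peak in at least 2 clones, of the HSP70 class 6 of 14 (42.9%), of DNAJB 5 of 12 (41.7%), of DNAJC 10 of 29 (34.5%) and of DNAJA 1 of 4 (25%). Of the small heat shock protein class, HSPBAP1 included, it was 1 of 8 (12.5%), the one class of 9 below the 23.3% of all genes. Put together, 16 of 45 J protein genes (35.6%) and 20 of the 39 other chaperone genes (51.3%) were listed in at least 2 ΔNSPs clones. With 1 to 29 genes a class these are counts of named genes, and the differences between classes were not tested.

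**Figure D1:**
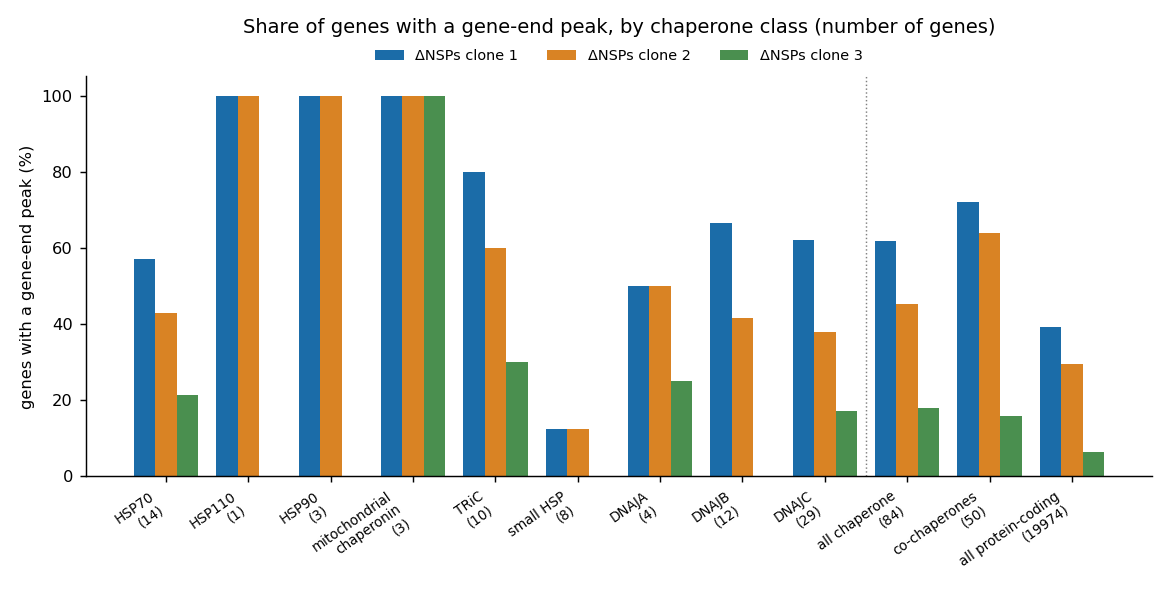
Share of genes (%) with a gene-end peak in each ΔNSPs clone, for the 9 chaperone classes and, right of the dotted line, for all 84 chaperone genes, 50 co-chaperone genes and all 19974 protein-coding genes; the number of genes is given in brackets. No chaperone gene had such a peak in a control line, so those bars would be at 0; the mitochondrial chaperonin class reached 100% in every clone, and the small heat shock proteins 12.5% in clones 1 and 2.

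The mitochondrial chaperonin genes stood under the strongest peaks of the set in clones 1 and 3. HSPD1 codes for HSP60 (chromosome 2, 197486584 to 197500274, minus strand) and HSPE1 for its lid HSP10 (197500379 to 197503449, plus strand), and the genes start next to each other and run apart. The sequences of this shared start region are shown because every ΔNSPs clone had a peak in it. Both come from RefSeq, build GRCh38.p14, and run 250 bases before to 50 bases after a listed start. The HSPD1 window, chr2:197499791-197500090 on the minus strand, belongs to the inner of its listed starts, with heat shock elements in capitals; the HSPE1 window, chr2:197500129-197500428 on the plus strand, has a cyclic AMP response half-site in capitals (TGACG, here on the opposite strand).
HSPD1: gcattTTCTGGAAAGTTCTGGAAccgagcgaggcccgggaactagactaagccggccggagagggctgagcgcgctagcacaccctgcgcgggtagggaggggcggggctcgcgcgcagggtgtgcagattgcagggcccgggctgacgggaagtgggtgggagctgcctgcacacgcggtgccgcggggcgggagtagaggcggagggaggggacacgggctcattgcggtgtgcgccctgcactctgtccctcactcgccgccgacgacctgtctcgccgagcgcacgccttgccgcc
HSPE1: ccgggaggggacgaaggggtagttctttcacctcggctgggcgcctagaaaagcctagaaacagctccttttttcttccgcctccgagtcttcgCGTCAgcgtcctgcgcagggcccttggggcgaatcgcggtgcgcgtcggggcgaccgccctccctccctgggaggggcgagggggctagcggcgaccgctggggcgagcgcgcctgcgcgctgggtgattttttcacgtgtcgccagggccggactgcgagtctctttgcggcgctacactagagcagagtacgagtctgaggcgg
A heat shock element was searched here as GAANNTTC or TTCNNGAA, the paired unit that heat shock factors bind, and the letters alone do not show binding.

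Since the genes share these peaks, HSPD1, HSPE1 and HSPE1-MOB4 had the same values. In ΔNSPs clone 1 a peak from 197499853 to 197500403 had a fold of 3.67 over the local background and a −log10 q of 29.2, rank 24 of the 14262 peaks. In clone 3 a peak from 197500071 to 197500251 had a fold of 2.46 and a −log10 q of 10.4, rank 42 of 2188. In clone 2 the interval was split, with a peak from 197499840 to 197499939 at a fold of 2.73 (−log10 q 12.4) and another from 197500097 to 197500296 at a fold of 2.45 (−log10 q 7.58), and the control lines had none. The 3 overlapping heat shock elements printed above met the peaks of clones 1 and 3 and in the gap between the peaks of clone 2. The high rank went with many reads at a moderate fold. The fold and p imply pile-ups of 130, 91 and 106 reads in ΔNSPs clones 1, 2 and 3 over local backgrounds of 34.7, 32.7 and 42.6 reads. HSPD1 and HSPE1 have many processed pseudogenes, and the treatment of reads that map to several places is unknown.

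**Figure D2:**
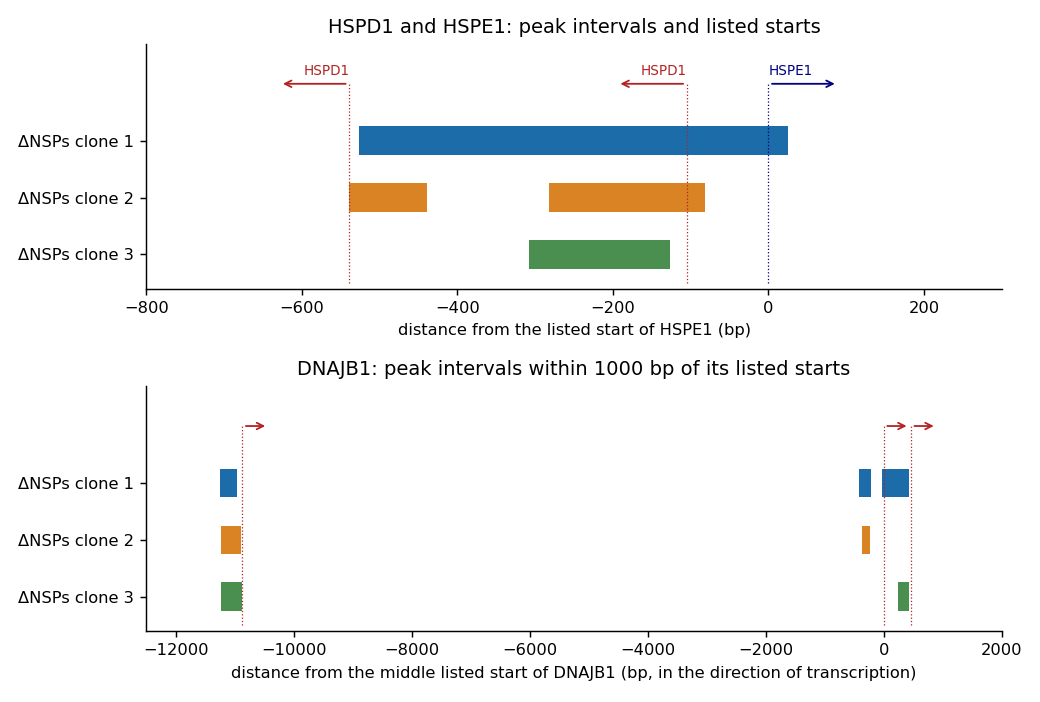
Peak intervals in the 3 ΔNSPs clones (bars) at HSPD1 and HSPE1, in bp from the listed start of HSPE1, and at DNAJB1, in bp from its middle listed start; arrows mark listed starts and their direction. The control lines had no peak in either region; at HSPD1 and HSPE1 the clone 1 peak covers nearly all of the stretch in which clone 2 has 2 separate peaks, and at DNAJB1 all 3 clones have a peak at the outermost start shown.

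TRiC, the cytosolic chaperonin that folds actin and tubulin, is a double ring of 8 different subunits, each with its own gene. All 8 of these genes were listed in at least 1 ΔNSPs clone, while 53.4% of all protein-coding genes were listed in none. CCT3, the gamma subunit gene, had folds of 2.93, 4.36 and 2.36 in ΔNSPs clones 1, 2 and 3, with −log10 q of 7.49, 18.6 and 4.19. CCT7, the eta subunit gene, had folds of 2.49, 4.84 and 2.33 in clones 1, 2 and 3, with summits 968, 976 and 943 bp before its 5′ end. Clones 1 and 2 also had a peak at its start, with summits 38 and 57 bp before it and folds of 3.49 and 3.66. TCP1, the alpha subunit gene, had folds of 2.11, 4.30 and 2.07 in clones 1, 2 and 3; the clone 2 value is from a peak 767 bp before its 5′ end, and the peak of clone 2 nearer to the start had a fold of 2.99. The 3 genes have neighbours in the same windows (TSACC, PRADC1 and MRPL18). In clone 3 the TCP1 peak had a −log10 q of 2.15, rank 1978 of 2188, close to the end of the list.

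CCT5 (epsilon) had a fold of 2.87 in clone 1 and 5.85 in clone 2, CCT6A (zeta) 3.28 and 2.47, and CCT8 (theta) 2.38 and 2.51, with no peak in clone 3 or in a control line. The CCT5 peak of clone 1 had a −log10 q of 2.07, rank 13815 of 14262, close to the end of the list. CCT2 (beta) and CCT4 (delta) had a peak in clone 1 alone, at folds of 3.18 and 3.20. The peaks of CCT6A, a gene with pseudogenes, also lay in the window of PSPH, and the treatment of multiply mapped reads touches its values. Every subunit gene of the ring was thus listed in clone 1, against 39.1% of all protein-coding genes. Clone 3 listed 3 of them, against 6.55% of all protein-coding genes. The genes of the class with no gene-end peak in any library were CCT6B, which codes for a testis form of the zeta subunit, and CCT8L2, a CCT8-like gene.

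The HSP70 class had 3 genes with a peak in all 3 ΔNSPs clones. HSPA8 codes for the constitutive cytosolic HSP70 (chromosome 11, 123057489 to 123062462), HSPA5 for BiP, the HSP70 of the endoplasmic reticulum (chromosome 9, 125234853 to 125241343), and HSPA13 for an HSP70-like microsomal protein (chromosome 21, 14371115 to 14383146). The promoters of HSPA8 (chr11:123062087-123062386, minus strand, heat shock elements in capitals) and HSPA5 (chr9:125241294-125241593, minus strand, endoplasmic reticulum stress response element in capitals) follow, from RefSeq, build GRCh38.p14, because an element in each overlapped a peak in all 3 clones.
HSPA8: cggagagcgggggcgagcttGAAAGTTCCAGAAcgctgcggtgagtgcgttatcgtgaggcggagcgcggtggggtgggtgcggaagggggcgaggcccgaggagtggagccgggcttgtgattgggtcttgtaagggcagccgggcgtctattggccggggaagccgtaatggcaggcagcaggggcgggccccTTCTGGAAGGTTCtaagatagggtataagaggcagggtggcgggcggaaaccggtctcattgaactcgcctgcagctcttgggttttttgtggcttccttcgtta
HSPA5: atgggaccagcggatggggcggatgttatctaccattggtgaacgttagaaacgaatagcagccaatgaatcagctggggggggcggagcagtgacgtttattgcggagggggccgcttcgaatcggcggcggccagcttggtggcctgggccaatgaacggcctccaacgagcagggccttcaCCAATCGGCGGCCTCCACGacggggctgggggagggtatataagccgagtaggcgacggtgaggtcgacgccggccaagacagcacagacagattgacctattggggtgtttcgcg
The second element was searched as the CCAAT box and the CCACG box, 9 bases apart, a motif of the unfolded protein response.

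HSPA8 had folds of 4.40, 2.80 and 2.19 in ΔNSPs clones 1, 2 and 3, with −log10 q of 12.3, 5.35 and 2.34. HSPA5 had folds of 2.50, 3.38 and 2.23 in clones 1, 2 and 3, with −log10 q of 3.72, 8.91 and 2.59. HSPA13 had folds of 1.96, 4.55 and 1.95 in clones 1, 2 and 3, with −log10 q of 3.65, 39.2 and 3.59. The clones did not order the genes alike, since HSPA8 was highest in clone 1 and HSPA5 and HSPA13 in clone 2. At HSPA13 clone 2 stood well above the other clones, with rank 31 of 24981 peaks and an implied 132 reads over a background of 28.2, against 67 over 33.8 in clone 1 and 81 over 41.1 in clone 3. HSPA8 has many processed pseudogenes, so the doubt over multiply mapped reads holds for its values too. HSPA5 and HSPA8 lay close to the −log10 q of 2 at which the lists end in clone 3.

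Heat shock elements at HSPA8 from 123062354 to 123062366 overlapped a peak in all 3 ΔNSPs clones, and those nearer its inner start, from 123062179 to 123062191, overlapped none. The endoplasmic reticulum element of HSPA5, from 125241391 to 125241409, lay whole under a peak in each of the 3 clones. No control line had a peak over any of them.

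Of the other HSP70 genes, HSPA9, which codes for the mitochondrial HSP70 mortalin, had a fold of 4.79 in clone 1 and 4.97 in clone 2, and HSPA14, whose product assists new chains at the ribosome, 3.00 and 4.05. These strongest peaks of HSPA9 did not overlap, and that of clone 2 had 15 implied reads. The clone 2 peak that overlapped the clone 1 peak of HSPA9 had a fold of 3.88. HSPA4, whose product is an HSP110 relative, and HSPA6, a strictly stress-inducible HSP70 gene, had a peak in clone 1 alone, at folds of 3.98 and 3.81; the HSPA6 peak also lay in the window of FCGR2A. HSPA12A, HSPA12B, HSPA1A, HSPA1L, HSPA2 and HSPA4L had no gene-end peak in any library; HSPA12B had peaks inside the gene, 3 in clone 1 and 1 in clone 2. HSPA2 and HSPA1L are known chiefly from testis, and HSPA12B from endothelium.

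The stress-inducible HSP70 is coded by a pair of near-identical genes on chromosome 6, HSPA1A (31815543 to 31817942) and HSPA1B (31827738 to 31830254), and they differed in the lists. HSPA1B had folds of 3.45 and 5.58 in ΔNSPs clones 1 and 2, with −log10 q of 14.1 and 23.5 and ranks of 527 and 326. HSPA1A had no gene-end peak in any library, and the nearest peaks lay 8464 and 8511 bp away in clones 1 and 2. Their promoters are printed to show how alike they are, both on the plus strand from RefSeq, build GRCh38.p14, with the heat shock element in capitals, at chr6:31827488-31827787 for HSPA1B and chr6:31815293-31815592 for HSPA1A.
HSPA1B: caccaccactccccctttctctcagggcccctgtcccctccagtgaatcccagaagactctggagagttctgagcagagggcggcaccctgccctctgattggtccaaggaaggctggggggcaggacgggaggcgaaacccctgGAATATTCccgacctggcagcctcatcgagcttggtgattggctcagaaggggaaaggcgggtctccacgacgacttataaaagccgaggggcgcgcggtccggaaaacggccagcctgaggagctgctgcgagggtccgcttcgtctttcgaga
HSPA1A: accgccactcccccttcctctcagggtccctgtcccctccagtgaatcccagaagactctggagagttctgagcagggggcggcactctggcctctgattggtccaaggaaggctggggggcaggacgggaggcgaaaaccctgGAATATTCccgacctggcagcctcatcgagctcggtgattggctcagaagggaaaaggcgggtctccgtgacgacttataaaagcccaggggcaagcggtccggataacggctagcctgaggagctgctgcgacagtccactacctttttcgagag
The longest run of identical bases in the 2 windows of 300 bases was 49. Summits at HSPA1B lay 250 and 404 bp before its start in clones 1 and 2, at or beyond the edge of the printed window, and the element shown was under the clone 1 peak and not the clone 2 peak. Whether reads shared by the pair were kept, split or dropped is unknown, so the difference between HSPA1A and HSPA1B is uncertain.

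HSPH1, the HSP110 gene whose product resets HSP70 by nucleotide exchange, had folds of 2.77 and 4.49 in ΔNSPs clones 1 and 2, with −log10 q of 4.47 and 13.2. HSP90AA1, the inducible cytosolic HSP90 gene, had folds of 5.52 and 3.11 in ΔNSPs clones 1 and 2, and HSP90AB1, the constitutive one, 4.37 and 2.95. At both of these genes the peaks of the 2 clones had no base in common. The HSP90AA1 peaks lay at its outer start, 102139749, and also in the window of WDR20. In clone 2 the −log10 q there was 2.22, rank 23466 of 24981, close to the end of the list. The heat shock elements of HSP90AA1 lay at an inner start, 102087044, where only clone 1 had a peak. HSP90B1 codes for GRP94, the HSP90 of the endoplasmic reticulum (chromosome 12, 103930410 to 103947926), and its peaks overlapped, at folds of 2.68 and 2.96 and −log10 q of 7.61 and 7.69 in clones 1 and 2. No HSP90 or HSP110 gene had a peak in clone 3 or in a control line.

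The HSP90B1 promoter, chr12:103930160-103930459 on the plus strand (RefSeq, build GRCh38.p14), is shown because it is, with HSPA5, one of 2 chaperone genes whose promoter held the endoplasmic reticulum stress response element, in capitals at 2 places.
HSP90B1: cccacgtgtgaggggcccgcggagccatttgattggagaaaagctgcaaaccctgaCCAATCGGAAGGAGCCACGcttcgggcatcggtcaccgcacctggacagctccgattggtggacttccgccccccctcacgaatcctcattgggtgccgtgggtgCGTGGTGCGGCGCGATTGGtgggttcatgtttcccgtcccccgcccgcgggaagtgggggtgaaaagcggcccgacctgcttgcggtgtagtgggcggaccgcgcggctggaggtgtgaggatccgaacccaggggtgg
The element farther from the start, 103930216 to 103930234, lay whole under a peak in ΔNSPs clones 1 and 2, and the nearer one, 103930321 to 103930339, under none. Among all 22140 promoters in the table, 23 (0.104%) held this element. It was added to the motifs after the values at these genes had been seen.

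**Figure D3:**
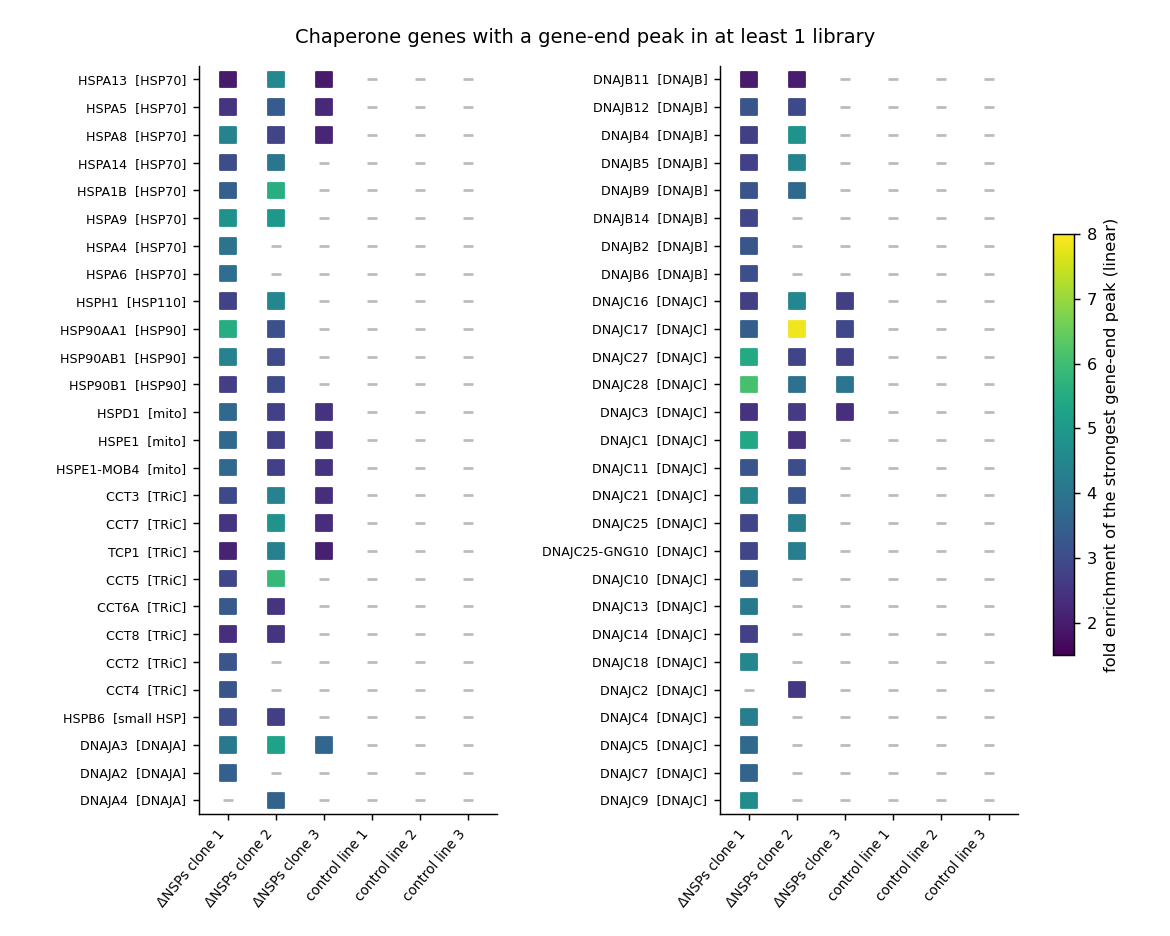
Fold enrichment of the strongest gene-end peak (colour, linear scale) for each of the 54 chaperone genes with a peak in at least 1 library, in 3 ΔNSPs clones and 3 control lines; a dash marks a library with no peak, and the class is in brackets. All control columns hold dashes, and the 15 genes with a peak in clone 3 also have one in clones 1 and 2.

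J proteins choose the clients and the place of work of HSP70. In the DNAJA class DNAJA3, whose product works with mortalin in mitochondria, had folds of 4.09, 5.24 and 3.62 in ΔNSPs clones 1, 2 and 3, with −log10 q of 8.34, 9.74 and 4.35, and its peaks shared a base in all 3. DNAJA2 had a fold of 3.46 in clone 1 alone and DNAJA4 of 3.55 in clone 2 alone. Their −log10 q of 2.05 and 2.21 lay close to the end of those lists. DNAJA1, a major cytosolic partner of HSP70, had no peak, the nearest lying 23554 and 36755 bp away in clones 1 and 2.

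No DNAJB gene had a gene-end peak in clone 3. DNAJB9 and DNAJB11, which code for BiP partners in the endoplasmic reticulum, had folds of 3.16 and 1.96 in clone 1 and 3.68 and 2.01 in clone 2. The DNAJB11 peak of clone 1 had a −log10 q of 2.21, close to the end of the list. DNAJB4 and DNAJB5, cytosolic HSP40 genes, had folds of 2.70 and 2.74 in clone 1 and 4.82 and 4.39 in clone 2. At DNAJB5 the −log10 q was 3.49 in clone 1 and 19.98 in clone 2, with ranks of 9668 and 565. DNAJB12, coding for a J protein of the endoplasmic reticulum membrane, had peaks at both ends, at folds of 4.45 and 4.25 at its 5′ end and 3.18 and 2.93 at its 3′ end in clones 1 and 2. DNAJB14, DNAJB2 and DNAJB6 had a peak in clone 1 alone, at folds of 2.86, 3.24 and 3.05. The −log10 q was 2.33 at DNAJB14 and 2.09 at DNAJB6, close to the end of the list. DNAJB1, DNAJB13, DNAJB7 and DNAJB8 had no gene-end peak in any library.

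In the DNAJC class 5 genes had a peak in all 3 ΔNSPs clones. DNAJC3, whose product helps BiP and restrains the kinase PERK in the unfolded protein response, had folds of 2.44, 2.62 and 2.39 in ΔNSPs clones 1, 2 and 3 and −log10 q of 12.5, 10.9 and 8.71, the narrowest range of folds among the 15 genes. DNAJC16, coding for a membrane protein of the endoplasmic reticulum, had folds of 2.71, 4.48 and 2.72 in clones 1, 2 and 3. DNAJC27, coding for a Rab-like GTPase with a J domain, had folds of 5.42, 2.85 and 2.77, and its clone 1 peak had rank 36 with a −log10 q of 26.4. The shape of the series differed from gene to gene, level at DNAJC3, highest in clone 2 at DNAJC16 and highest in clone 1 at DNAJC27.

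DNAJC17, coding for a nuclear J protein with an RNA recognition motif, had folds at its 5′ end of 3.42, 4.77 and 2.92 in ΔNSPs clones 1, 2 and 3. It also had peaks at its 3′ end, with folds of 3.90 and 7.87 in ΔNSPs clones 1 and 2, and this last value was the highest fold at any chaperone gene. DNAJC28 had folds of 6.09, 3.89 and 4.03 in clones 1, 2 and 3, from peaks with few reads (22, 19 and 15), and was the only gene of the 15 at which no base was covered in all 3 clones.

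Among the DNAJC genes with a peak in clones 1 and 2, DNAJC1, coding for a BiP partner in the endoplasmic reticulum membrane, had folds of 5.37 and 2.42. DNAJC21, whose product acts in ribosome assembly, had folds of 4.50 and 3.18 from its strongest peaks, which did not overlap. DNAJC25, with its readthrough gene, had folds of 2.85 and 4.22, and DNAJC11, coding for a mitochondrial membrane protein, 3.20 and 3.01. Of the genes with a peak in 1 clone, the highest folds in clone 1 were 4.63 at DNAJC9, which codes for a histone co-chaperone, 4.48 at DNAJC18 and 4.22 at DNAJC4, and in clone 2 3.55 at DNAJA4 and 2.53 at DNAJC2. All 5 of these peaks had 11 to 22 implied reads. At DNAJA4 and DNAJC2 the −log10 q was 2.21 and 2.01, close to the end of the clone 2 list. The 10 DNAJC genes without a gene-end peak were DNAJC12, DNAJC15, DNAJC19, DNAJC22, DNAJC24, DNAJC30, DNAJC5B, DNAJC5G, DNAJC6 and DNAJC8; DNAJC5B had 2 peaks inside the gene in clone 1.

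Few genes of the small heat shock protein class, HSPBAP1 included, were listed. A peak in at least 2 clones was found at 1 of 8 (12.5%), against 23.3% of all protein-coding genes. No clone had a peak at 7 of the 8, and the same held for 53.4% of all protein-coding genes. With 8 genes these are counts of named genes, and the difference was not tested. HSPB1, HSPB2, HSPB3, HSPB7, HSPB8, HSPB9 and HSPBAP1 had no gene-end peak in any library. HSPB6 had folds of 3.03 and 2.70 in ΔNSPs clones 1 and 2, but these peaks began 899 and 878 bp outside the gene, in the window of PROSER3. For HSPB1, which codes for the widely expressed HSP27, the nearest peaks lay 7567 and 7727 bp away in clones 1 and 2. Several of these genes, such as HSPB3 and HSPB7, are known from muscle and heart.

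The peaks of chaperone genes lay mostly at their 5′ ends, as did those of protein-coding genes as a whole. Strand was known for 76 of the 84 genes, from the promoter table. Of those with a gene-end peak, 49 of 49, 35 of 35 and 15 of 15 had one at the 5′ end in ΔNSPs clones 1, 2 and 3, against 96.0%, 92.5% and 91.9% of all protein-coding genes with a gene-end peak in the same clones. A peak at the 3′ end was found at 2 of 49, 3 of 35 and 0 of 15 of these chaperone genes in clones 1, 2 and 3. Those shares were 4.08%, 8.57% and 0%, against 9.41%, 13.9% and 11.1% of all protein-coding genes with a gene-end peak. The counts are small and the difference was not tested. In at least 2 clones, 33 of 76 (43.4%) had a 5′ peak, against 23.7% of all genes with a known strand. The median summit lay 109, 101 and 124 bp outside the 5′ end in clones 1, 2 and 3 at chaperone genes, and 46, 69 and 94 bp outside it at all genes. Of the 36 genes with a peak in at least 2 clones, 33 had a base covered in every clone counted, the exceptions being DNAJC28, HSP90AA1 and HSP90AB1. Such common bases were not counted for all genes, so this number has no background to be set against. At 18 of the 36 (50%) a peak also lay in the window of another protein-coding gene, as at 41.7% of all genes with a peak in at least 2 clones, so these peaks cannot be assigned to 1 gene.

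**Figure D4:**
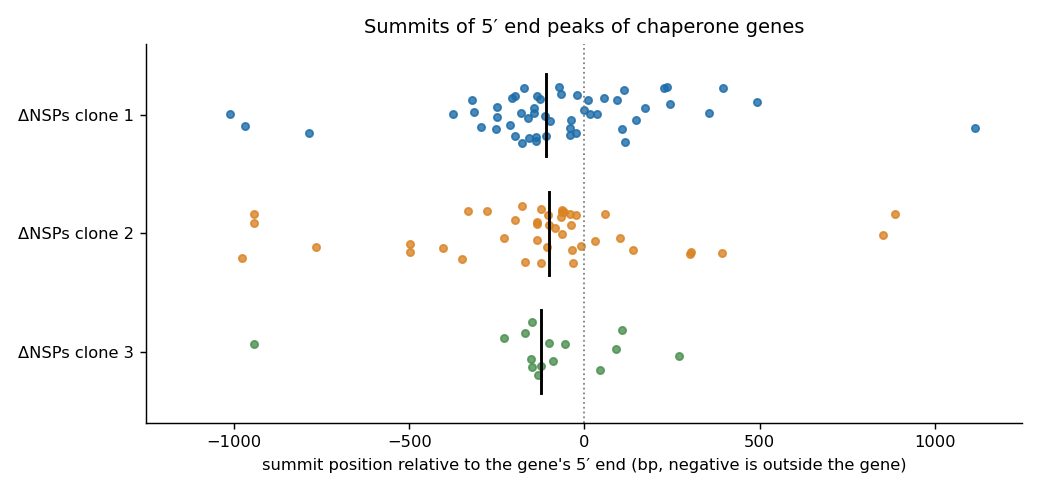
Summits of 5′ end peaks of chaperone genes in the 3 ΔNSPs clones, each point a gene and peak, by distance (bp) from the 5′ end of the gene, negative outside it; black bars are medians. The medians sit at −109, −101 and −124 bp in clones 1, 2 and 3, and no control line had a peak to plot.

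At chaperone genes the peaks held more reads, but no higher folds, than gene-end peaks as a whole. The median fold was 3.28, 3.62 and 2.39 at chaperone genes in ΔNSPs clones 1, 2 and 3, against 3.54, 3.74 and 2.98 at all protein-coding gene ends. The median implied pile-up was 35, 41 and 46 reads at chaperone genes and 27, 28 and 34 at all gene ends, and the median local background 9.22, 10.8 and 19.6 reads against 6.73, 6.90 and 10.9. Reads at the summit and around it were therefore both more numerous, in each of the 3 clones. At the threshold of these lists a site with more reads reaches a given q at a lower fold, and the part of this in the share of chaperone genes listed was not tested.

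**Figure D5:**
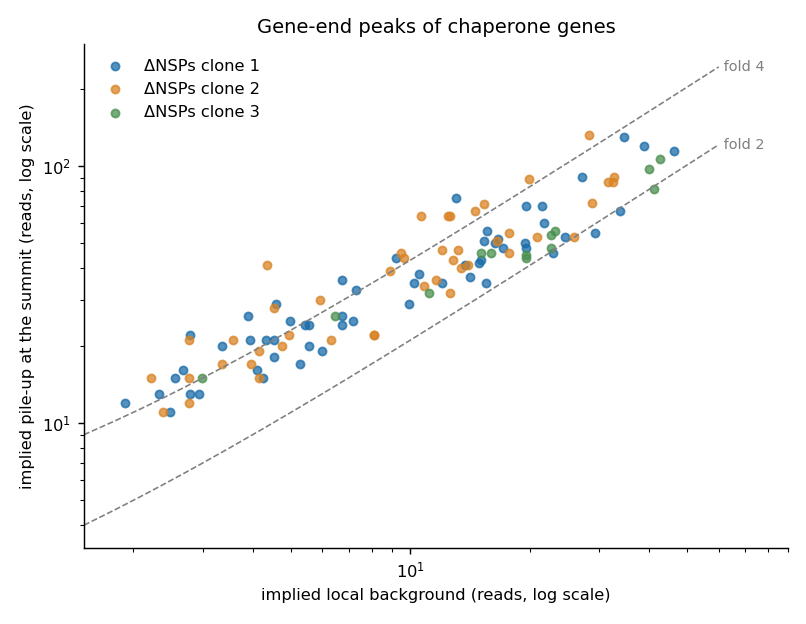
Implied pile-up at the summit against implied local background (reads, log scales) for the gene-end peaks of chaperone genes in the 3 ΔNSPs clones; dashed lines mark folds of 2 and 4. Most points lie between the lines, the clone 3 points mostly near a fold of 2; the peak with a pile-up of 132 reads is HSPA13 in clone 2.

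The excess of chaperone genes over all genes depended on how strong a peak had to be. With peaks of −log10 q of 5 or more, 22 chaperone genes (26.2%) were listed in at least 2 ΔNSPs clones, against 11.0% of all protein-coding genes. With the lists of the clones shortened to the strongest 2188 peaks each, it was 13 (15.5%) against 4.90%, and in all 3 clones 1 (1.19%) against 1.15%, near the share of all genes. With a fold of 4 or more it was 4 (4.76%; DNAJA3, DNAJB12, DNAJC28 and HSPA9) against 4.17%, and none in all 3 clones, against 0.245%. Clone by clone at that fold, 15, 18 and 1 chaperone genes (17.9%, 21.4% and 1.19%) were listed in ΔNSPs clones 1, 2 and 3, against 13.5%, 12.8% and 0.906% of all genes. At a fold of 4 or more the shares in at least 2 clones thus lay close together, and in clone 2 by itself they lay farther apart. The HSPA9 peaks of that fold in clones 1 and 2 did not overlap.

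Peaks were listed more often at CpG-rich promoters, among chaperone genes as among all genes. In the promoter nearest the gene's end, the median number of CpG dinucleotides in 300 bases was 25 for the 33 chaperone genes with a peak in at least 2 ΔNSPs clones, 28.5 for the 18 with a peak in 1 and 15 for the 25 with none. Among genes with at least 15 CpG, 32 of 62 chaperone genes (51.6%) had a peak in at least 2 clones, against 34.6% of 10325 protein-coding genes. Below 15 CpG it was 1 of 14 (7.14%), against 8.27% of 5488. The chaperone share was thus above that of all genes among the CpG-rich promoters. Below 15 CpG the 14 chaperone genes, with 1 listed, are too few for the shares to be compared.

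Some chaperone genes have starts inside the gene that the gene-end windows miss. DNAJB1 codes for the main heat-inducible HSP40 (chromosome 19, 14514769 to 14560391, minus strand) and had no gene-end peak, but all 3 ΔNSPs clones had a peak just before its listed start at 14529271, with folds of 2.18, 2.82 and 2.29 and implied pile-ups of 57, 68 and 75 reads. Around its starts at 14518397 and 14517937, clone 1 had peaks with folds of 4.99 and 2.45, clone 2 one with a fold of 2.14 and clone 3 one with a fold of 4.20. The window of the start at 14518397, chr19:14518348-14518647 on the minus strand (RefSeq, build GRCh38.p14), is shown because its 2 heat shock elements, in capitals, lay under no peak.
DNAJB1: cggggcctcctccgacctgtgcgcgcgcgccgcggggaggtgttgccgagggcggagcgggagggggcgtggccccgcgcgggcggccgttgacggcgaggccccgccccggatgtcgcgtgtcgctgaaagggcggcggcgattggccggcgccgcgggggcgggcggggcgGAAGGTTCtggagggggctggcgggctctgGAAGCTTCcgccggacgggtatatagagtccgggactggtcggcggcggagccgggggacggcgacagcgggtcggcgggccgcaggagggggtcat
The clone 1 peaks, 14517971 to 14518422 and 14518610 to 14518821, lay on either side of these elements, at 14518437 to 14518444 and 14518467 to 14518474. DNAJC14 likewise had peaks near an inner start at 55829587 on chromosome 12, with folds of 2.74 and 3.33 in clones 1 and 2. At the inner start of HSP90AA1, 102087044 on chromosome 14, clone 1 had a peak with a fold of 4.88. Counted within 1000 bp of any listed start, 35 of 76 chaperone genes (46.1%) had a peak in at least 2 ΔNSPs clones, against 25.4% of 15813 genes, and 16 (21.1%) in all 3, against 5.79%.

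Heat shock elements were more common in chaperone promoters than in all promoters, and at most of the chaperone genes with one it lay under no peak. The overlap of elements with peaks was not counted for all genes, so it has no background to be set against. On either strand, 27 of 97 chaperone promoters (27.8%), from 26 genes, held GAANNTTC or TTCNNGAA, against 11.6% of all 22140 promoters. Of 36 chaperone promoters under a peak in at least 2 ΔNSPs clones 7 held one, and of the other 61 promoters 20 did. An element itself overlapped a peak by 1 base or more in at least 1 clone at 9 of the 26 genes (CCT2, CCT4, HSP90AA1, HSPA1B, HSPA6, HSPA8, HSPA9, HSPD1 and TCP1), in at least 2 clones at HSPA8, HSPD1 and TCP1, and in all 3 at HSPA8. The CCAAT box was in 20 of the 36 promoters under peaks and 18 of the other 61, and in 39.2% of chaperone promoters against 34.6% of all. For neither motif was the split by peaks made over all promoters, so it has no background. The 97 chaperone promoters include several starts of some genes and the shared windows of the readthrough genes. TGACG was in 46.4% of chaperone promoters against 27.9% of all, the Sp1 box GGGCGG in 69.1% against 56.3%, and the ETS core CCGGAA in 23.7% against 21.2%. The YY1 core GATGGC was in 17.5% against 13.1%, and the NRF1 half-site GCATGCG in 7.22% against 4.63%. The matches are letters in a window, not sites of binding.

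Sorted by where the products work, a grouping made after the values were known, the genes of the endoplasmic reticulum were listed most often of the 3 groups in clone 1 and in at least 2 clones, and the mitochondrial genes in clone 3. All 13 of the endoplasmic reticulum had a gene-end peak in ΔNSPs clone 1, against 39.1% of all genes, and 9 (69.2%) in at least 2 clones, against 23.3% (HSPA5, HSPA13, HSP90B1, DNAJB9, DNAJB11, DNAJB12, DNAJC1, DNAJC3 and DNAJC16). Of 10 mitochondrial genes 6 (60%) had one in at least 2 clones (HSPA9, HSPD1, HSPE1, DNAJA3, DNAJC11 and DNAJC28). In clone 3, and so in all 3 clones, 4 of 13 and 4 of 10 were listed (30.8% and 40%), against 5.4% of all genes in all 3. HSPD1 and HSPE1 share the same peak in clone 3 and were counted as separate mitochondrial genes. The lead of the mitochondrial genes in clone 3 therefore rests in part on a peak counted more than once. Of 8 core heat-inducible genes 3 (37.5%) were listed in at least 2 clones (HSP90AA1, HSPA1B and HSPH1), HSPA6 had a peak in clone 1, and HSPA1A, HSPB1, DNAJB1 and DNAJA1 had none at a gene end. The HSP90AA1 peaks counted here lay at its outer start. At the inner start with its heat shock elements clone 1 alone had a peak.

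Genes that work with the chaperones were listed still more often in ΔNSPs clones 1 and 2, but not in clone 3. Of 50 co-chaperone and heat shock regulator genes, 36, 32 and 8 (72%, 64% and 16%) had a gene-end peak in ΔNSPs clones 1, 2 and 3, against 61.9%, 45.2% and 17.9% of the chaperone genes, and none had one in a control line. In at least 2 clones it was 28 (56.0%), against 42.9% of the chaperone genes and 23.3% of all genes. In all 3 clones it was 6 (12%), against 17.9% of the chaperone genes and 5.4% of all genes. The 6 genes were CALR, the lectin chaperone calreticulin, CDC37, which brings kinases to HSP90, GAK, which uncoats clathrin vesicles with HSP70, HSCB, the J protein of iron-sulphur cluster assembly, HSPBP1, an HSP70 exchange factor, and LONP1, the mitochondrial protease. STIP1, which links HSP70 to HSP90, and CANX, HYOU1, PDIA3 and PDIA4 of the endoplasmic reticulum had peaks in clones 1 and 2. BAG1 and BAG3, which code for HSP70 exchange factors, and HSF4, a heat shock factor gene, were among those with none. Proteasome subunit genes, which serve protein breakdown, were listed in at least 2 clones at 15 of 39 (38.5%), so a share above that of all genes was also found in another set of housekeeping genes.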

How the data were processed

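ATAC-seq peak lists of 6 libraries were used, 3 of ΔNSPs clones and 3 of control lines, grouped by their titles. Per the submitters' processing notes the authors used build GRCh38 and the tools MACS2, Bowtie2, Picard and FastQC; for versions, settings, multiply mapped reads and any transposase shift, the record is not given in the sources at hand. The names inside each list are of a single library, so peaks were called per library. The deposited fold is a ratio of the summit over the local background, and the authors' p-value and q-value are listed as −log10 p and −log10 q. They were used to describe and rank peaks within a list.

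Lines with the same interval were taken as 1 peak with its summit of highest −log10 q, and peaks on chromosomes 1-22, X and Y were used. A summit offset below 0 (127 in clone 2) was set to 0. Gene positions came from RefSeq (GRCh38.p14), and strand, listed starts and sequences from its promoter table, which matched 76 of the 84 genes. Intervals within 1000 bp of a gene's start or end were gene-end peaks. For each gene and library the values given are those of the strongest peak by −log10 q. Pile-up and background were solved from the fold, taken as (pile-up + 1)/(background + 1), and a Poisson p; the pile-up came out whole, within 0.05 read, for 100% of clone peaks. The solver and the overlap step recovered 100% of 2000 and 200 simulated cases. The read totals are unknown, so no interval or floor was given.

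The number of genes with such a peak was compared between groups on log10(genes + 1), by exact two-sided permutation over 20 assignments of the libraries. Single genes cannot pass 0.05 in this design and were not tested, and a call means a peak in 2 or more clones but no control line. The labels give the libraries of a group no culture of their own beyond line or clone, so the p measures the spread between these libraries.

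Genes named with values were those with a peak in all 3 clones, those in 2 clones, the classes HSP70, HSP110, HSP90, mitochondrial chaperonin and TRiC throughout, and the 1-clone genes of highest fold; outside this rule, the 1-clone genes DNAJA2, DNAJB14, DNAJB2 and DNAJB6 and inner-start peaks were added after their values were seen. The class members, gene lists and motifs were chosen with earlier results of these data known, and the endoplasmic reticulum element and the grouping by compartment were added after seeing the values here. Alternatives were the window (500 and 2500 bp), stricter peaks, lists of equal length, summits, 5′ ends, readthrough genes left out and each library left out. Python 3.11.15, pandas 2.3.3, NumPy 2.4.6, SciPy 1.17.1 and matplotlib 3.10.9 were used.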

Additional observations from a re-analysis of the deposited data

How the results depend on the processing

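The 36 chaperone genes with a gene-end peak in at least 2 ΔNSPs clones, and the 15 in all 3, became 35 and 14 (41.7% and 16.7%, against 20.6% and 4.75% of all genes) with a window of 500 bp. A window of 2500 bp gave 39 and 16 (46.4% and 19.0%, against 27.1% and 6.35%), and summits alone 35 and 15 (41.7% and 17.9%, against 22.9% and 5.23%). It was 33 and 15 with 5′ ends alone (43.4% and 19.7%, against 23.7% and 5.44%), and 34 and 14 without the readthrough genes and HSPBAP1 (42.0% and 17.3%, against 23.3% and 5.4%). Chosen after seeing the data, windows around any listed start gave 35 and 16, members sharing a peak counted once 33 and 13, and a base covered in every clone counted 33 and 14. For shared peaks and for common bases no share of all genes was counted. Stricter peaks moved the counts. A −log10 q of 5 or more gave 22 genes in at least 2 clones and 5 in all 3 (5.95%, against 1.26% of all genes), with 32 in clone 1 and 5 in clone 3. A fold of 4 or more gave 4 and 0, with 15, 18 and 1 in clones 1, 2 and 3 and 3 classes above the share of all genes in place of 8. Lists of 2188 peaks gave 13 and 1 (DNAJC17; 1.19%, against 1.15%), with 16 in clone 1, 8 in clone 2 and 4 classes.

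Leaving out 1 library gave 15 to 36 genes with a peak in at least 2 clones, 15 to 36 in all those left, and 5 to 8 classes above all genes; the 15 came without clone 1 and also without clone 2, against 5.63% and 6.21% of all genes. By class the ranges were 3 to 6 for HSP70, 0 to 1 for HSP110, 0 to 3 for HSP90, 3 to 3 for the mitochondrial chaperonin, 3 to 6 for TRiC, 0 to 1 for small heat shock proteins, 1 to 1 for DNAJA, 0 to 5 for DNAJB and 5 to 10 for DNAJC. The difference in genes per library stayed at 3.34 to 3.73 on the log10 scale. The labels number the libraries of both groups alike but say nothing of a pairing; with the replicate number as a block the difference was 3.49 and the exact sign-flip p = 0.25, the smallest that 3 pairs allow.

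Read totals are unknown, and clone 3 and the control lines have short lists, so a gene without a peak there is not shown to be closed.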
